A study of Mus musculus with 4 samples.

Results

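The m6A peaks of 9 genes for calcium/calmodulin-dependent kinases and protein kinase C isoforms of central sensitisation were examined in mouse spinal cord. The genes encode the 4 subunits of calcium/calmodulin-dependent protein kinase II (CaMKII: Camk2a, Camk2b, Camk2d and Camk2g), CaMKIV (Camk4), its upstream kinase CaMKK2 (Camkk2) and 3 protein kinase C (PKC) isoforms (Prkca, Prkcb and Prkce). Members were the rows of the deposited peak tables that carried one of these gene names. They held 34 of the 33556 peaks called in the CCI group, 39 of the 34406 peaks called in the sham group and 10 of the 4812 rows of the deposited table of differential peaks. The 9 genes stand among 13558 genes named in these tables.

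The animals were C57BL/6J mice aged 6 to 8 weeks. In the CCI (chronic constriction injury) group the sciatic nerve was tied loosely with silk, and the sham group had the same surgery with no ligature. Neither group is labelled with a transgene or a drug, and spinal cord was collected on day 7. In methylated RNA immunoprecipitation sequencing (MeRIP-seq), fragmented poly(A) RNA is pulled down with an antibody against m6A and compared with input RNA. Each group gave 1 IP library and 1 input library, with no replicate, so no test between the groups was possible and a difference below describes these libraries only. How many mice stood behind a library was not given in the sources used here.

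The unit of each value is the fold enrichment of a peak, the IP signal over the input signal as deposited by the authors. It is set against the input of the same group and is not a transcript level. The read depth is unknown, so no interval can be put on a fold enrichment. In bulk spinal cord, fewer cells of a type and less RNA per cell cannot be told apart, and a peak carries no cell type. As a check of the tissue, all 6 neuronal, 3 astrocyte, 3 oligodendrocyte and 3 microglial marker genes had a peak in both lists, as did the 3 Hox genes of lumbar cord. None of the 3 skeletal muscle markers had a peak in either list, and both Schwann cell markers and both haemoglobin genes had peaks in both lists. Of the 3 sensory neuron markers of the dorsal root ganglion, 0 had a peak in CCI and 2 in sham. The part of these other cells in the values below was not tested.

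CaMKII is a many-subunit enzyme that calcium-bound calmodulin switches on and that keeps part of its activity by phosphorylating itself. In the dorsal horn it acts behind NMDA receptors, where it phosphorylates AMPA receptors and strengthens synapses. CaMKK2 phosphorylates CaMKIV, a mostly nuclear kinase that acts on the transcription factor CREB. Conventional PKC isoforms respond to calcium and diacylglycerol, whereas PKC epsilon needs diacylglycerol but no calcium, and both kinds are known to sensitise pain pathways. m6A is laid down mostly near stop codons and in the 3′-UTR of mRNA, and it can alter the stability and translation of a transcript.

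The first transcribed bases are shown for the 4 members that had a 5′-UTR peak near their start and an entry in the start-site table used here (RefSeq, GRCm38.p6). Near means at most 418 bp, the value of Prkcb, from the outermost gene start in the deposited lists. The bases shown begin at the RefSeq start, and the sham Prkcb peak covered 6 of the first 50. At Camk2d and Prkcb the 5′-UTR peak was called in sham alone, and at Camk2b and Prkca it was called in both groups. Capitals mark GGAC, the core of the motif at which m6A is commonly placed, and each sequence is written 5′ to 3′ on the transcript strand.
Camk2b, chr11:6065719-6065748, minus strand: aggtgtgcggcgcgctcctggcggGGACag
Camk2d, chr3:126596951-126596980, plus strand: ggaggcgccggggaggagccgcggctgcca
Prkca, chr11:108343859-108343888, minus strand: agtgagcgtggggccagccagcgagccaga
Prkcb, chr7:122289125-122289154, plus strand: aagcacagctGGACcagcggcagcagctgg
GGAC began at base 25 in Camk2b and at base 11 in Prkcb, and it was absent from the first 50 bases of Camk2d and Prkca. The same 4 letters occurred in the first 50 bases of 18.9% of 32851 start windows, and their reverse complement GTCC in 17.4% and in none of the 4 genes shown. Over the first 30 bases, the Camk2b peak of CCI covered all 30 and that of sham 17, both Prkca peaks covered all 30, and the sham peaks of Camk2d and Prkcb covered 0. The match of letters is a description and does not place a methylated base.

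Every one of the 9 kinase genes carried at least 1 peak in both groups. Most genes did so too, since of 13554 genes with a peak in either list 12408 had one in CCI and 12907 in sham. The kinase genes held 3.78 peaks each on average in CCI and 4.33 in sham, against 2.70 and 2.67 over all genes with a peak. Camk2a, the alpha subunit that predominates in forebrain neurons, had 7 peaks in both lists, a number reached by 5.43% of genes in CCI and 5.08% in sham. Camk2b, the beta subunit that binds actin, followed with 6 peaks in both lists and Prkce with 5. Prkcb had the fewest, with 1 peak in CCI and 2 in sham. The median fold enrichment of the members' peaks was 5.08 in CCI and 6.13 in sham, close to 5.73 and 5.70 over all peaks.

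**Figure D1:**
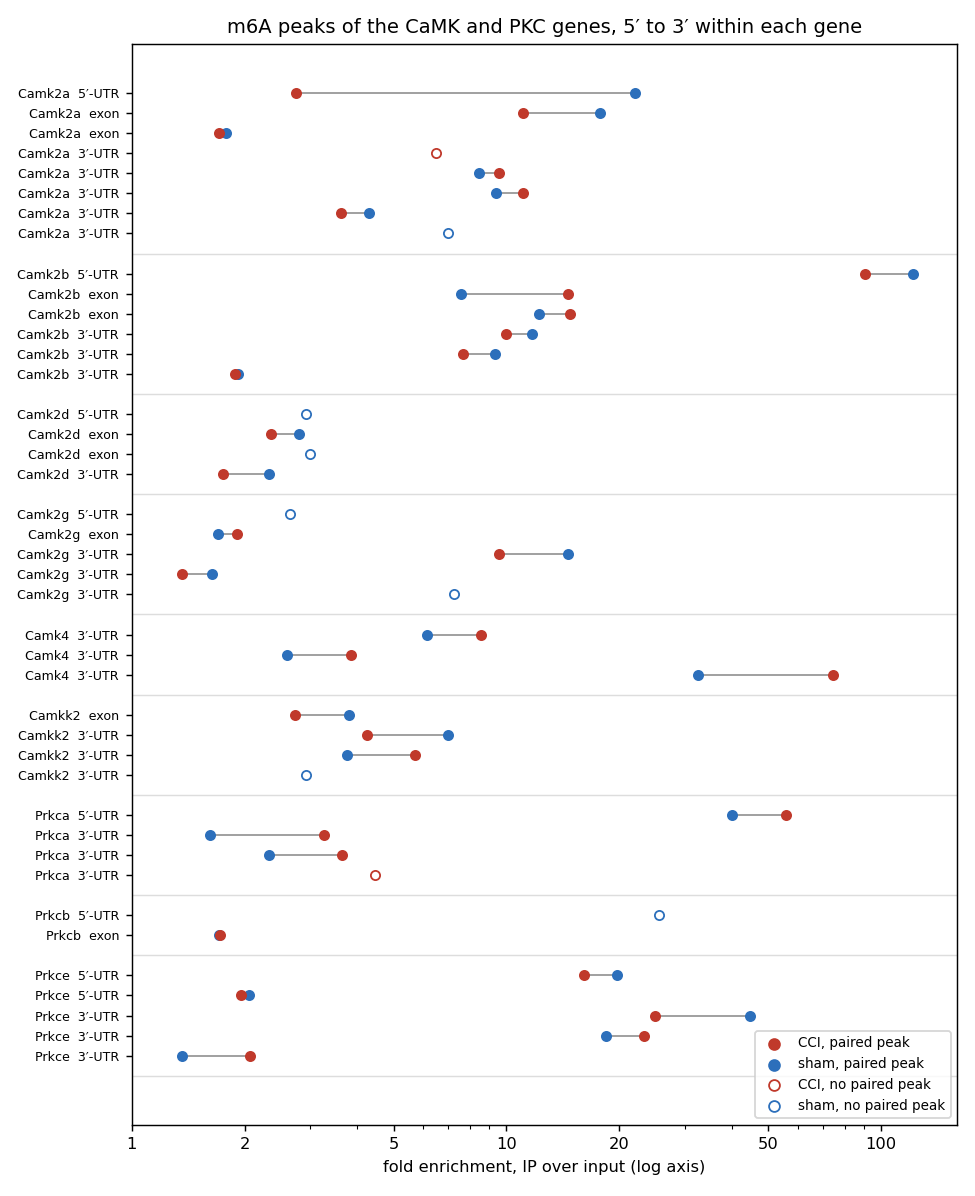
Fold enrichment (IP over input, log axis) of every m6A peak of the 9 kinase genes, 1 row per site in 5′ to 3′ order within each gene and labelled by its CCI region where there is a CCI peak, with CCI in red and sham in blue. Filled points joined by a line are the 32 pairs of overlapping peaks and open points are peaks with no partner, of which 7 were in sham and 2 in CCI, 1 of the latter beside a wide sham peak paired elsewhere.

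To compare the groups, peaks of the same gene were paired when their exonic blocks overlapped and each was the other's best partner. This gave 32 pairs for the 9 genes and 27179 pairs over the whole lists. The log2 ratio of fold enrichment, CCI over sham, had a median of -0.04 over the members' pairs, with quartiles of -0.32 and 0.48. Over all pairs the median was 0.03 and the quartiles were -0.37 and 0.43. The fold enrichment was lower in CCI for 17 and higher for 15 of the members' pairs.

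Of the 32 pairs, 3 (9.38%) differed at least 2-fold, against 15.8% of all pairs. Among them, 2 pairs (6.25%) were higher in CCI, against 8.6% of all pairs, and 1 pair (3.12%) was lower, against 7.24%. These shares rest on 2 pairs and 1 pair, too few to set these genes apart from the background. The 3 pairs were the 5′-UTR site of Camk2a, the site at the transcript end of Camk4 and a 3′-UTR site of Prkca. Next to the threshold, the log2 ratio was 1.01 at the Prkca site just inside it and 0.95 at an exonic site of Camk2b just outside it. Centred on the median of all pairs, the Prkca site fell short of the threshold and 2 pairs passed.

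**Figure D2:**
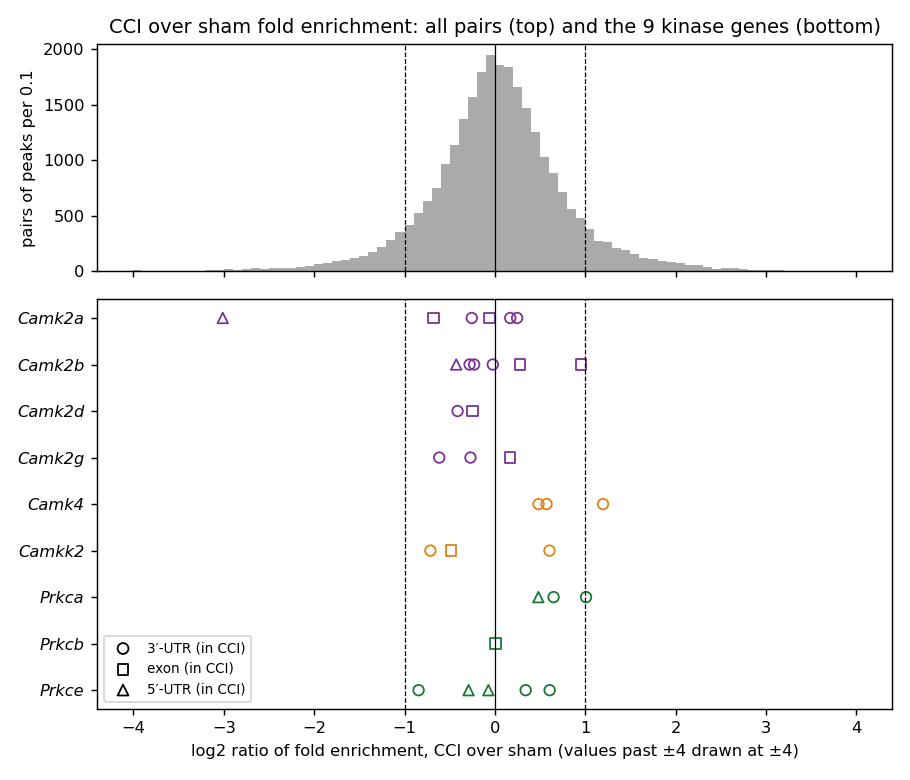
Log2 ratio of fold enrichment, CCI over sham, for all 27179 pairs of peaks (top, number of pairs per bin of 0.1) and for the 32 pairs of the 9 kinase genes (bottom, 1 row per gene, shape by annotated region). Dashed lines mark a 2-fold difference, which 3 pairs of the kinase genes passed, and the 5′-UTR pair of Camk2a lies far to the left at -3.01.

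Genes of the same branch did not all go the same way. In the CaMKII genes, 12 of 17 pairs were lower in CCI, where 47.8% of all pairs were lower, and the median log2 ratio was -0.25. In Camk4 and Camkk2 together, 4 of 6 pairs were higher, with a median of 0.53, and in the PKC genes 6 of 9 pairs were higher, with a median of 0.34. By gene, the median was 0.57 for Camk4 but -0.49 for Camkk2, and 0.65 for Prkca but -0.07 for Prkce, and the pair of Prkcb had 0.01. Pairs of 1 gene share their transcript and are not independent.

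Camk2a (chr18:60925618-60988152, plus strand, GRCm38) held the widest difference of the 9 genes. The peak annotated to the 5′-UTR of a shorter transcript that starts inside the gene (chr18:60958650-60963714) had a fold enrichment of 2.74 in CCI and 22.1 in sham. The log2 ratio was -3.01, and it stood at the 0.21 percentile of all pairs. The peaks were not alike in extent, since the CCI peak covered 211 exonic bp, all of them within the 300 bp of the sham peak, and no row of the differential table overlapped the site.

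The exonic peak next to it in Camk2a (chr18:60963894-60977968, annotated to exon 13 of 18) had the same borders in both lists, with 11.1 in CCI and 17.8 in sham and a log2 ratio of -0.68. The sites further along the gene were close to equal. At exon 16 the fold enrichment was 1.71 in CCI and 1.78 in sham. In the 3′-UTR, the peak from chr18:60985934-60986353 had 11.1 in CCI and 9.36 in sham, and that from chr18:60987552-60987792 had 3.61 and 4.31. Higher and lower values thus occurred side by side in the same 3′-UTR.

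The broadest 3′-UTR stretch of Camk2a was called as 1 peak of 810 bp in sham, with a fold enrichment of 8.47, and as 2 peaks in CCI with 6.50 and 9.53. The pair that shared the most bases had a log2 ratio of 0.17, and its 2 values do not cover the same length. At the very end of the transcript (chr18:60988032-60988152), a peak of 6.97 was called in sham with no CCI peak over it. Its log10 false discovery rate was -1.89, the weakest call among the members' sham peaks.

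Camk2b (chr11:5969644-6065748, minus strand) carried the strongest peak of the 9 genes, at its 5′-UTR. Its fold enrichment was 90.7 in CCI and 122 in sham, values that 1.70% of CCI peaks and 1.03% of sham peaks reached. Each peak covered 240 exonic bp, of which 210 were shared. The CCI peak (chr11:6065526-6066272) reached past the annotated gene start and the sham peak (chr11:6065496-6065735) did not. The log2 ratio was -0.43, so the peak was lower in CCI by less than 2-fold. An exonic site of a short transcript (chr11:6012277-6012396) went the other way, with 14.6 in CCI, 7.55 in sham and a log2 ratio of 0.95. The calls at this site were weak, with a log10 false discovery rate of -3.29 in CCI and -3.17 in sham. The peak annotated to exon 14 of 21 had 14.8 in CCI and 12.2 in sham.

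The 3 peaks in the 3′-UTR of Camk2b were all slightly lower in CCI. The largest of them in extent (chr11:5969913-5970930) had 7.66 in CCI and 9.30 in sham. The peak at chr11:5971379-5971768, which a row of the differential table overlapped, had 9.98 and 11.7, a log2 ratio of -0.23. The weakest, next to the end of the gene, had 1.89 and 1.92.

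Camk2d (chr3:126596951-126844913, plus strand), whose delta subunit is widespread and best known in heart, had only weak peaks. Its exonic pair had 2.35 in CCI and 2.79 in sham, and its 3′-UTR pair had 1.75 and 2.33, each with the same borders in both lists. Both were lower in CCI, with log2 ratios of -0.25 and -0.41. A 5′-UTR peak of 2.91 and an exonic peak of 3.00 were called in sham with no CCI peak over them.

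Camk2g (chr14:20734875-20794051, minus strand) encodes the gamma subunit, known for carrying calmodulin to the nucleus. Its main peak, in the 3′-UTR at chr14:20736071-20736669, was called over identical bases in CCI and sham. Its fold enrichment was 9.53 in CCI and 14.6 in sham, a log2 ratio of -0.62. A weak 3′-UTR peak nearby had 1.36 in CCI, which 99.5% of CCI peaks reached, and 1.64 in sham. A peak of 7.25 over the last 180 bp of the gene was called in sham, with no CCI peak over it. Each of these 3 sites overlapped a row of the differential table, and the gene's 3 rows were the most of any of the 9 genes. Of the other Camk2g sites, the exonic pair had 1.91 in CCI and 1.70 in sham, and a 5′-UTR peak of 2.64 was called in sham, with no CCI peak over it.

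Camk4 (chr18:32939041-33195767, plus strand) was higher in CCI at each of its 3 sites, all in the 3′-UTR. The peak over the last 300 bp of the gene (chr18:33195468-33195767) began and ended at the same bases in CCI and sham. Its fold enrichment was 74.5 in CCI and 32.5 in sham. Its log2 ratio of 1.20 was the highest of the 32 pairs and stood at the 93.8 percentile of all pairs. The site 10534 bp before the gene end had 8.57 in CCI and 6.13 in sham, and the site 7751 bp before it had 3.85 and 2.59, so the log2 ratios were 0.48 and 0.57. No row of the differential table carried Camk4.

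Camkk2 (chr5:122731170-122779382, minus strand) showed both directions. Its 3′-UTR peak 2214 bp before the gene end had 5.70 in CCI and 3.75 in sham, a log2 ratio of 0.60. A peak annotated to the 3′-UTR of another transcript inside the gene (chr5:122753820-122756403) had 4.25 and 6.97, a log2 ratio of -0.71. The site 15226 bp after the gene start had 2.72 in CCI and 3.81 in sham, and the annotation named it exon 2 of 17 in CCI and 5′-UTR in sham although the peaks overlapped by 360 bp. It was the site of the gene that a differential row overlapped. A sham peak of 2.91 lay 60 bp before the gene end, where no CCI peak was called.

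**Figure D3:**
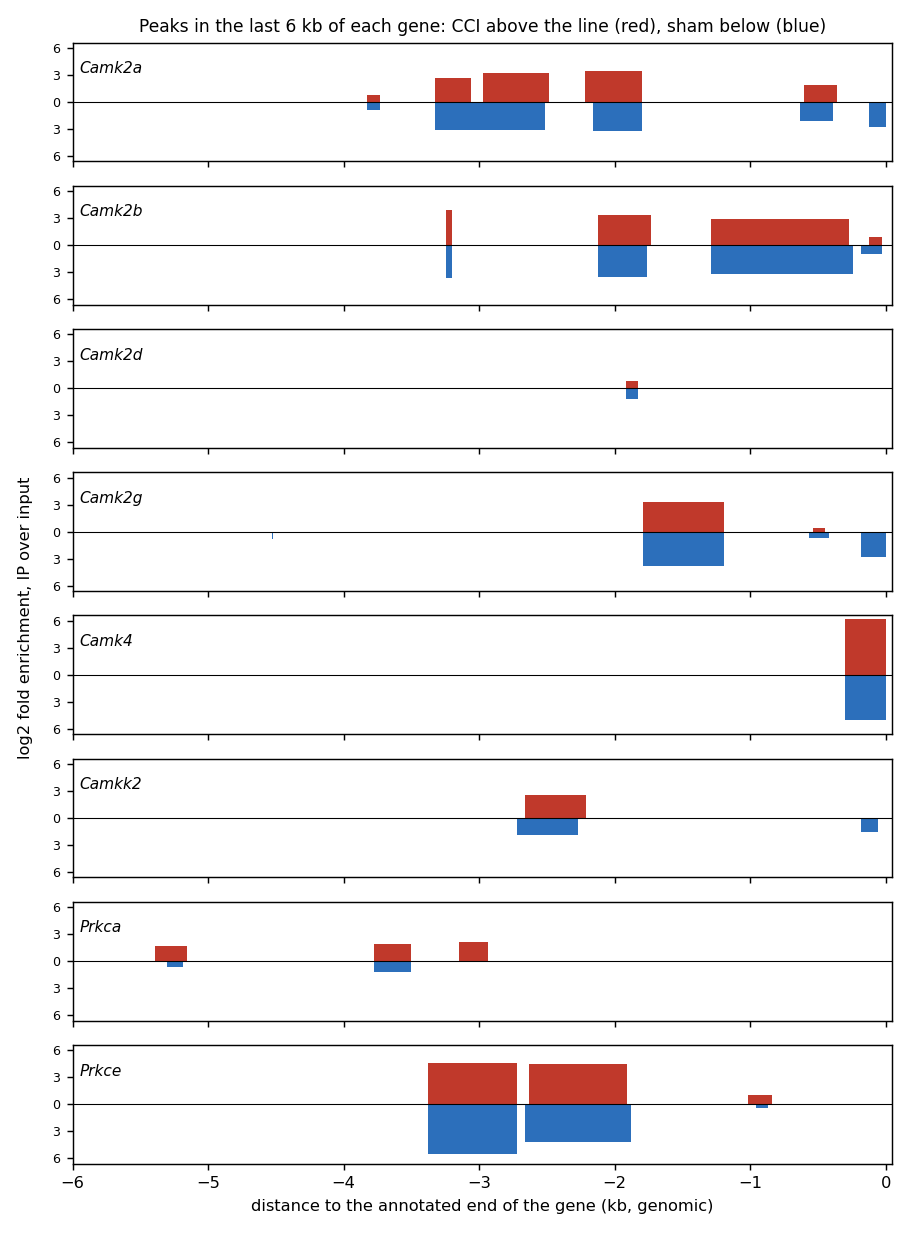
Peaks in the last 6 kb of the 8 kinase genes that had a 3′-UTR peak, as log2 fold enrichment (vertical axis, CCI upward in red and sham downward in blue) against genomic distance in kb to the annotated gene end at 0. The end peak of Camk4 stands highest. The end of Camk2a, Camk2g and Camkk2 each has a sham peak with no CCI peak opposite, whereas Camk2b and Camk4 have an end peak in both groups.

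Prkca (chr11:107933387-108343928, minus strand), the conventional isoform alpha, was higher in CCI at each of its 3 pairs. The peak over its first 241 bp had 55.7 in CCI and 39.9 in sham, a log2 ratio of 0.48, and 3.28% of CCI peaks and 4.75% of sham peaks were as strong. In the 3′-UTR, the peak at chr11:107936893-107937163, with the same borders in both lists, had 3.64 in CCI and 2.32 in sham, a log2 ratio of 0.65. The peak at chr11:107938542-107938782 had 3.26 in CCI and 1.62 in sham, a log2 ratio of 1.01, but covered 241 bp in CCI and 121 bp in sham. Another 3′-UTR peak, of 4.45, was called in CCI with no sham peak over it, and it and the site with the log2 ratio of 1.01 overlapped the differential rows of the gene.

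Prkcb (chr7:122288751-122634399, plus strand), which encodes the beta isoforms, had its highest fold enrichment at a peak called in sham alone. A 5′-UTR peak of 91 bp 418 bp after the gene start had a fold enrichment of 25.6 in sham, a value that 9.01% of sham peaks reached, and no CCI peak lay over it. Its log10 false discovery rate was -5.44, a weaker call than the -19.7 of the gene's exonic peak in sham. With no CCI value the size of the difference cannot be given. Its exonic pair, annotated to exon 8 of 18, was equal in both groups, with 1.72 in CCI and 1.71 in sham. No row of the differential table carried the gene, which also had no 3′-UTR peak in either list.

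Prkce (chr17:86167785-86657919, plus strand) encodes PKC epsilon, the isoform best known for sensitising nociceptors. The leading 3′-UTR peak (chr17:86630150-86655200, which spans introns) had 24.9 in CCI and 44.7 in sham, a log2 ratio of -0.84. The 3′-UTR peak that follows it had 23.3 and 18.4, a log2 ratio of 0.34, so the neighbours went in opposite directions. The last 3′-UTR site had 2.07 in CCI and 1.36 in sham, a log2 ratio of 0.61, over 180 bp and 91 bp, and was the site that a differential row overlapped. At the start of the gene, the stronger 5′-UTR peak had 16.1 in CCI and 19.7 in sham, and the weaker had 1.96 and 2.06.

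Nearly all CCI peaks of the 9 genes had a sham peak of the same gene over them. The 3′-UTR peak of Prkca was the only 1 of 34 (2.94%) with none, against 13.2% of all CCI peaks. In the other direction, 7 of 39 sham peaks (17.9%) had no CCI peak over them, against 16.9% of all sham peaks. The share with a partner was 97.1% in CCI (95% Wilson interval 85.1 to 99.5) and 82.1% in sham (67.3 to 91.0), beside 86.8% and 83.1% over all peaks. These intervals cover counting error only. The 7 sham peaks without a partner lay in Camk2a, Camk2d, Camk2g, Camkk2 and Prkcb, with fold enrichments from 2.64 to 25.6 and a median of 3.00. They were 61 to 180 bp long, and 3 of them lay within 100 bp of a gene end. The end peaks of Camk2b and Camk4 were called in both groups. The share of such end peaks without a partner over the whole lists was not computed. At a false discovery rate below 0.01, 6 of the 7 stayed, without the end peak of Camk2a.

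Fewer of the kinase genes had a peak annotated to the 5′-UTR in CCI than in sham. A peak of this kind was present in 8 of the 9 genes in sham and in 4 in CCI, where 33.6% of all genes with a peak in sham and 31.3% in CCI had one. Camk2d, Camk2g and Prkcb had no CCI peak at that site, and the overlapping CCI peak of Camkk2 was annotated to an exon instead. Of the 9 sham 5′-UTR peaks, 3 (33.3%) thus had no CCI peak over them, against 20.7% of all sham 5′-UTR peaks. A share of so few peaks cannot be told from the background. Those of Camk2d (2.91 over 121 bp) and Camk2g (2.64 over 61 bp) were weak, and that of Prkcb had 25.6 over 91 bp. Of the 5 pairs annotated to the 5′-UTR in both lists, 4 were lower in CCI and the Prkca pair was higher, with a median log2 ratio of -0.29. Over all 3943 such pairs the median was -0.07 and 53.6% were lower.

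The 3′-UTR held most of the peaks of the 9 genes. Its share was 61.8% in CCI (21 of 34 peaks, Wilson interval 45.0 to 76.1) and 56.4% in sham (22 of 39, 41.0 to 70.7), and over all peaks it was 49.8% and 48.9%. Exonic peaks took 23.5% in CCI (12.4 to 40.0) and 20.5% in sham (10.8 to 35.5), against 35.5% and 35.1%. The 5′-UTR took 14.7% (6.45 to 30.1) and 23.1% (12.6 to 38.3), against 14.7% and 16.1%. Each of these intervals held the share over all peaks. Counting each gene and region 1 time, the 3′-UTR took 44.4% in CCI and 38.1% in sham, since several of these peaks came from the same 3′-UTR.

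**Figure D4:**
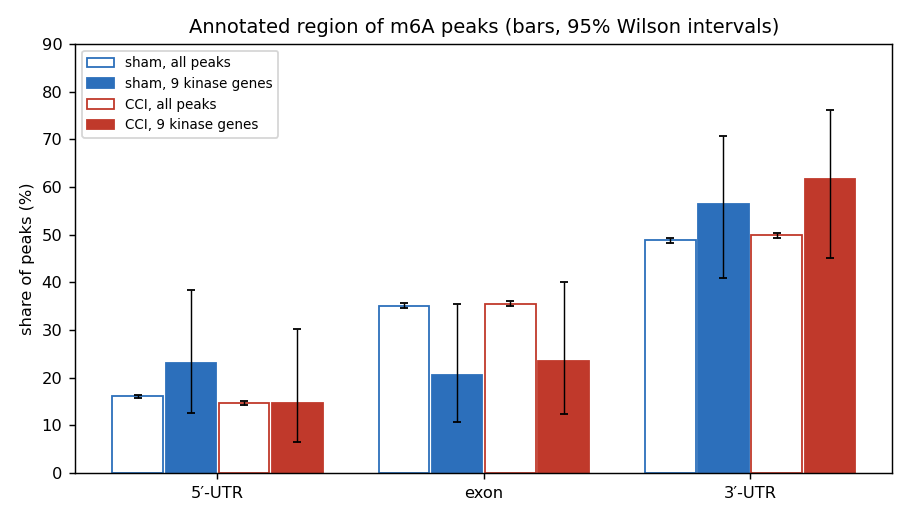
Share of m6A peaks (%) by annotated region for sham (blue) and CCI (red), over all peaks (open bars) and the peaks of the 9 kinase genes (filled bars), with 95% Wilson intervals as error bars. The kinase genes have 61.8% of CCI and 56.4% of sham peaks in the 3′-UTR, where all peaks have 49.8% and 48.9%, and their intervals are wide.

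Median fold enrichment followed the region in the same order in both groups, though the members' peaks per region were few and spread widely. In the kinase genes the median was highest in the 5′-UTR, at 16.1 in CCI and 19.7 in sham, then in the 3′-UTR, at 5.70 and 6.55, and lowest in exons, at 2.54 and 2.90. The 5′-UTR values came from 5 peaks in CCI (1.96 to 90.7) and 9 in sham (2.06 to 122). The exonic ones came from 8 in each list. Over all peaks the order was the same, with 8.51 and 8.21 in the 5′-UTR, 5.92 and 5.81 in the 3′-UTR and 4.69 and 4.78 in exons. The pairs in the 3′-UTR of both lists had a median log2 ratio of 0.17 over the 19 of the members and of 0.06 over all 13746.

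The deposited differential table held a row for 6 of the 9 genes (66.7%), against 25.3% of all genes with a peak, and the members also carried more peaks than other genes. By pairs, 8 of 32 (25%) overlapped a differential row, against 15.7% of all pairs. The 10 rows fell on Camk2g (3), Camk2a (2), Prkca (2), Camk2b (1), Camkk2 (1) and Prkce (1), and 9 of them were annotated to the 3′-UTR. The 3′-UTR share over all differential rows was not computed, and most peaks of these genes lay in the 3′-UTR in both lists. Of the 3 pairs past 2-fold, the 5′-UTR pair of Camk2a and the end pair of Camk4 overlapped no row, whereas the Prkca pair did. The Prkca peak called in CCI alone and the Camk2g end peak called in sham alone also overlapped rows. The other sham peaks without a partner did not.

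The other genes of the pathway were counted from 5 lists of 70 genes, of which 61 had a peak, and they formed 166 pairs with a median log2 ratio of 0.00. Of these pairs, 9 (5.42%) were at least 2-fold higher and 8 (4.82%) at least 2-fold lower in CCI, below the 8.6% and 7.24% of all pairs. The other CaM kinase and calmodulin genes had 33 pairs with 2 higher and 1 lower, and the other PKC genes with the related PKD and PKN kinases had 16 pairs with 2 higher and 0 lower. Upstream genes (G proteins, phospholipases C, calcium channels of the endoplasmic reticulum and diacylglycerol kinases) had 43 pairs with 1 higher and 4 lower. Substrates and anchors had 54 pairs with 1 higher and 1 lower, and the phosphatases that oppose the kinases had 20 with 3 higher and 2 lower.

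Camk2n1, an inhibitor of CaMKII, had a 5′-UTR peak of 776 in CCI and 282 in sham, a log2 ratio of 1.46. The calmodulin genes went opposite ways, with 79.4 in CCI and 29.3 in sham at Calm2 but 23.0 and 72.7 at Calm3, both in the 5′-UTR. The widest difference of the pathway lists was at the 3′-UTR of Ppp1r1b, which encodes the phosphatase inhibitor DARPP-32, with 115 in CCI, 13.7 in sham and a log2 ratio of 3.07.

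On the lower side, Dgkb, a diacylglycerol kinase that removes the lipid that activates PKC, had 3.91 in CCI and 13.9 in sham at its 5′-UTR, a log2 ratio of -1.83. Ppp3ca, the catalytic subunit of calcineurin, had 5.40 and 16.4 at its 5′-UTR, a log2 ratio of -1.60. Hdac5, a histone deacetylase that CaM kinases move out of the nucleus, had 1.58 and 4.65 at its 5′-UTR, over 121 bp in CCI and 391 bp in sham. Plcb3, a phospholipase C that makes diacylglycerol, had an exonic peak with 2.96 and 7.42. The phosphatase Ppm1e, which acts on CaM kinases, had an exonic peak that was higher in CCI, with 9.12 in CCI and 3.05 in sham. Paired peaks were also unlike in length at Dgkb (121 bp in CCI and 181 bp in sham), Plcb3 (150 and 240 bp) and Ppm1e (121 and 61 bp).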

How the data were processed

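Spinal cord of CCI and sham mice was analysed by MeRIP-seq with 4 libraries, 1 IP and 1 input per group. The submitters' processing notes name fastp, HISAT2, HOMER, ChIPseeker and the build GRCm38, whereas the study's methods name Cutadapt, bowtie, MACS2 and ChIPseeker. The column names are those of exomePeak output, the libraries were made by a dUTP method that keeps strand, and whether peak calling used the strand is not given in the sources used here. The deposited fold enrichment of a peak is a ratio, IP signal divided by input signal, made by the authors within each group. The deposited p-value compares IP with input within a group, and its log10 and that of the deposited false discovery rate were treated as a score. Region and gene are the authors' annotation. The differential table also holds the authors' own fold change, p-value and false discovery rate of CCI against sham, which were not used. Only the positions of its rows were.

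Peaks were paired across the lists when they carried the same gene name, their exonic blocks shared at least 1 bp, and each was the other's best partner by shared bases over the union. The log2 ratio of the deposited fold enrichments was computed over the whole lists, and called means an absolute value of at least 1 (2-fold). Shares have 95% Wilson intervals. The read depth is unknown, since the tables hold no read counts, so no precision can be put on a ratio. The members and lists were chosen with earlier results of these data known. All 9 members are named. Genes of the pathway lists are named where a pair passed 2-fold, at most 5 in each direction, and 1 of them is not reported here. All 9 members matched RefSeq symbols and lay over the gene of that name, 5 had a start window, and 0 columns were left out. Pairing was tested on simulated data. Alternatives varied the overlap, the filters on fold enrichment and false discovery rate, the centring, the threshold and the way sites were counted or averaged. Python 3.11.15, numpy 2.4.6, pandas 2.3.3 and matplotlib 3.10.9 were used.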

Additional observations from a re-analysis of the deposited data

How the results depend on the processing

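No paired analysis was possible because 1 IP and 1 input library stood for each group and no result came from a test. The read depth is unknown, the 2 lists were called against different inputs and over different borders, and with no replicate the spread between animals is not measured. Among 64 alternatives, 37 were on counts, shares and medians, of which 33 stayed the same and 4 moved. The same means within the 95% Wilson interval for a share, 1.5 times for a count and 0.1 for a log2 ratio. No sign was recomputed for the 2-fold pairs of Camk2a and Prkca, which are not the strongest pairs of their genes. With fold enrichment of at least 2 in both lists the median log2 ratio of the members' pairs was -0.23 over 23 pairs, beside -0.04 over 32, and the cause was not tested. With an absolute log2 ratio of at least 0.5 in place of 1, 12 pairs passed in place of 3, or 37.5%, against 41.5% of all pairs, since the threshold is lower. With each gene and region counted 1 time, the 3′-UTR share was 44.4% in CCI and 38.1% in sham, as the peaks of 1 UTR then count together. Of the 27 alternatives on the strongest pair of each gene, 14 moved, all where another pair or an average over the gene's peaks took its place. Averaged over all peaks by exonic length, log2 CCI over sham was -2.64 for Prkcb, beside 0.01 for its pair. The average for Prkcb takes in the peak of 25.6 called in sham alone, with a log10 false discovery rate of -5.44. This length-weighted log2 ratio changed sign for Camkk2, 0.04 beside -0.71, and Prkca, -0.15 beside 0.48. The pair that shared the most bases had 0.17 beside -0.68 in Camk2a and 0.60 beside -0.71 in Camkk2. Chosen after seeing the data, pairs with the same borders in both lists gave a median of -0.07 over 9 pairs, and overlap under any gene name gave the values reported.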
